A study of Mus musculus with 6 samples.

Results

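The genes described here code for 65 extracellular and cell-surface metalloproteases, their protease-free relatives and their inhibitors, measured in hearts of mouse embryos. They were chosen by gene symbol from the 14860 genes that the array's platform annotation names singly. There were 20 matrix metalloproteases (MMPs), 25 ADAMs, 12 ADAMTS proteases, 4 ADAMTS-like proteins (ADAMTSL) and 4 tissue inhibitors of metalloproteases (TIMPs). The 65 genes had 66 rows of the table, since Adam23 had a pair of them, and the row with the higher mean over all arrays was kept.

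Hearts were dissected at E13.5, when the chambers have formed and the endocardial cushions are being remodelled into valves and septa. The design compares hearts with and without Cre-mediated removal of Hic2, a zinc finger transcription factor gene. Control embryos carried both floxed Hic2 alleles (Hic2 FL/FL) and no Cre. Knockout embryos carried the same floxed alleles together with 1 Mesp1-Cre allele (Mesp1 Cre/+; Hic2 FL/FL), which drives recombination in early mesoderm, the source of most of the heart. Because no group carried Cre alone, removal of Hic2 and the presence of Cre cannot be told apart. Each genotype had 3 biological replicates, each a pool of 4 to 6 hearts on 1 Affymetrix array, so the spread given is between pools.

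Matrix metalloproteases are zinc-dependent enzymes, secreted or tethered to the membrane, that cut collagens, laminins and other matrix proteins. ADAMs are membrane proteins, and those with an active protease domain release the outer parts of receptors and growth factors from the cell surface. ADAMTS proteases are secreted and cut proteoglycans such as versican, fibrillar procollagens and von Willebrand factor, whereas ADAMTS-like proteins have the binding domains without the protease. TIMPs bind the active site of these enzymes. In the embryonic heart the balance between matrix synthesis and matrix cutting shapes trabeculae and valves. Many of these proteases are made as inactive precursors, so RNA does not show activity.

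The values are log2 expression values (RMA, robust multi-array average), with array medians between 7.41 and 7.48 and correlations between arrays of 0.993 to 0.997 over all genes. Cardiomyocyte genes were present at high level in both genotypes, with Tnnt2, cardiac troponin T, at 13.86 in control and 13.86 in knockout hearts on an array whose values ran from 2.08 to 14.5. Control replicate 3 stood apart in Eif2s3y, a gene of the Y chromosome, at 4.36 against 8.51 to 9.64 in the other arrays, and results without it are given below. Hic2 itself had a log2 value of 8.10, 8.26 and 8.14 in the control arrays and 8.07, 7.96 and 8.04 in the knockout arrays. Every knockout value lay below every control value, by -0.14 ± 0.07 on the log2 scale (SE), with an adjusted p of 0.314 and an exact two-sided permutation p of 0.1, the smallest that 3 against 3 arrays allow. No source used here says where the probes lie relative to the deleted part of Hic2, so this value does not check the labels.

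None of the 65 genes passed the test between genotypes. Genes were compared with limma as knockout minus control, and a Benjamini-Hochberg adjusted p under 0.05 over all 14860 genes was the threshold. It was passed by 0 of the 65, against 0.559% of all genes tested (0.336% higher and 0.222% lower in the knockout). At an unadjusted p under 0.05 there were 4 of the 65, Mmp9, Timp1, Adam6b and Timp4, all higher in the knockout, and 0 lower. That is 6.15% of these genes, beside 17.5% of all genes tested (10.7% higher and 6.8% lower). The groups did not overlap for 6 of the 65 (9.23%), namely Mmp9, Timp1, Adam6b, Mmp8, Mmp17 and Adamts20, each with every knockout array above every control array. Over all genes tested the groups did not overlap in 24.6% (14.2% with the knockout above and 10.4% below). Without control replicate 3 the counts were 0 past the threshold (0.0875% of all genes) and 6 at an unadjusted p under 0.05 (14.7% of all genes).

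The changes were small in size as well as short of the threshold. The median absolute log2 change was 0.06 over the 65 genes and 0.09 over all genes tested, and 75.4% of the 65 genes against 54.7% of all genes changed by less than 0.1 on the log2 scale. For 63 of the 65 genes the 95% confidence interval of the change lay wholly within 1.5-fold in either direction, the exceptions being Mmp9 and Timp1, and for all 65 it lay within 2-fold. That was near the background, since 93.2% of all genes tested lay within 1.5-fold and 14722 of 14860 within 2-fold. The median standard error was 0.07 for these genes and 0.08 for all genes tested. Among genes whose mean signal was at or above the median of all genes tested there were 20 of the 65, and 1 of these 20 had an unadjusted p under 0.05, beside 24.2% of all brighter genes. Among the 45 dimmer ones there were 3, beside 10.9% of all dimmer genes. RMA can compress changes of dim probe sets, and no detection calls were used here, so a dim value cannot be separated from background.

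**Figure D1:**
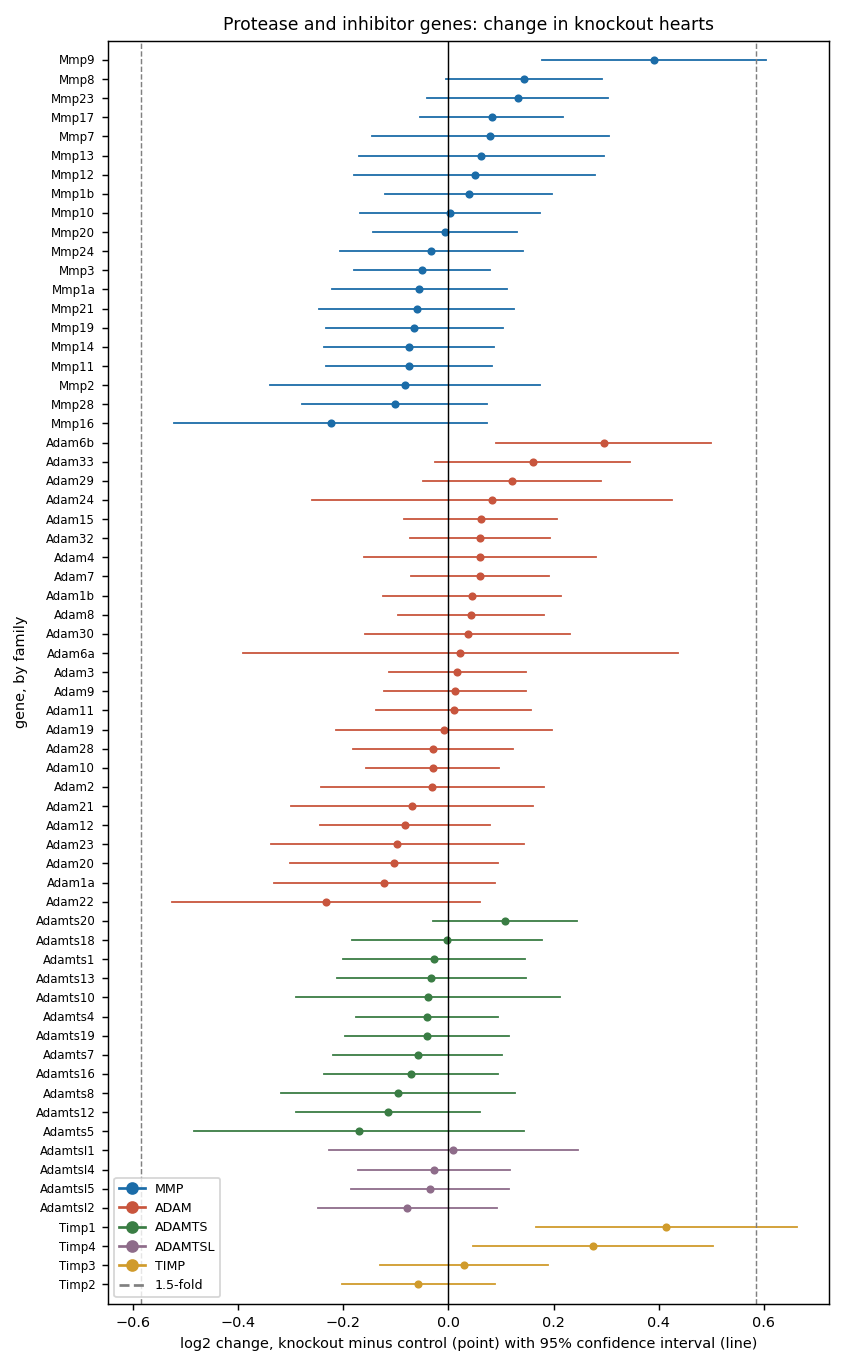
The log2 change of each of the 65 genes, knockout minus control, is drawn as a point with its 95% confidence interval as a line, grouped by family, with dashed lines at 1.5-fold. Most intervals cross 0, and only those of Mmp9 and Timp1 reach beyond 1.5-fold.

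**Figure D2:**
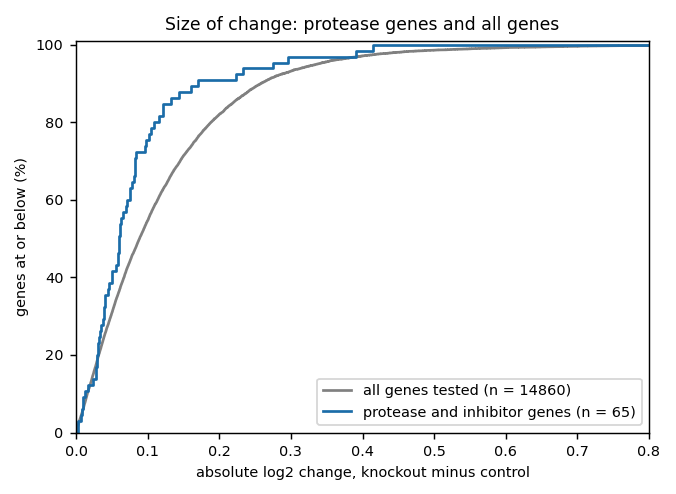
The cumulative share of genes is plotted against the absolute log2 change for the 65 protease and inhibitor genes and for all 14860 genes, with the axis ending at 0.8. The line of the 65 genes lies to the left of that of all genes over most of the range, with medians of 0.06 and 0.09.

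Among the matrix metalloproteases, 9 of 20 were higher and 11 lower in knockout hearts. Their median log2 change was -0.02, beside 0.00 over all genes tested. At an unadjusted p under 0.05 there was 1, beside 17.5% of all genes tested. That was Mmp9, gelatinase B, which cuts type IV collagen and denatured collagens and is made by macrophages and neutrophils among other cells. Mmp9 (probe set 6883125) had log2 values of 6.64, 6.58 and 6.38 in the control arrays and 6.85, 7.05 and 6.86 in the knockout arrays. The groups did not overlap, and the lowest value was that of control replicate 3. The difference was 0.39 ± 0.09 (SE), or 1.31-fold with a 95% interval of 1.13 to 1.52, at an adjusted p of 0.121. Without control replicate 3 it was 0.31 with an adjusted p of 0.227, and with arrays weighted by quality Mmp9 passed at an adjusted p of 0.0309, a setting in which 4.93% of all genes passed.

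Macrophage markers were higher in the same knockout arrays as Mmp9. All 10 of the 10 macrophage genes listed were measured and higher, 2 of them (the complement gene C1qc and the Fc receptor gene Fcgr3) past the threshold that 0.559% of all genes passed, and the mean log2 level of the list ran from 8.16 to 8.34 in control and from 8.56 to 8.65 in knockout arrays. The 8 neutrophil genes had 0 members past the threshold, with a mean level of 5.96 to 6.01 in control and 5.95 to 6.30 in knockout arrays. The 6 erythroid genes measured were all lower, 4 of them past the threshold, with a mean level of 11.63 to 11.75 in control and 10.750 to 10.999 in knockout arrays. The 4 cardiomyocyte genes measured, of 7 listed, had a mean level of 12.33 to 12.38 in control and 12.15 to 12.32 in knockout arrays, with 0 past the threshold. That list did not fall as a whole. Nkx2-5 (-0.37 ± 0.10, SE) and Ryr2 (-0.15 ± 0.10) were lower, while Tnnt2 (-0.003 ± 0.06) and Myl7 (0.03 ± 0.05) stayed near 0. The skeletal muscle list of 5 genes had a mean level of 7.23 to 7.36 in control and 7.59 to 7.74 in knockout arrays. In it 1 gene was past the threshold, the troponin gene Tnnt3 (1.81 ± 0.14, SE, adjusted p = 0.00883). The list did not rise as a whole, with 3 genes higher, 2 lower and a median log2 change of 0.04. Those lower were Myod1 (-0.06 ± 0.06) and Myf5 (-0.13 ± 0.10). The 5 epicardial genes, 3 higher and 2 lower, overlapped in mean level (10.23 to 10.38 and 10.33 to 10.56). Of these Msln was past the threshold (0.57 ± 0.08, adjusted p = 0.0418). Wt1 (0.28 ± 0.06) and Upk3b (0.17 ± 0.07) were also higher, while Tbx18 (-0.24 ± 0.08) and Aldh1a2 (-0.21 ± 0.17) were lower. RMA values do not reach 0, so none of these markers was at 0. The part of these cell types in the Mmp9 values was not tested, and in whole hearts more cells of a type and more RNA per cell cannot be told apart.

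**Figure D3:**
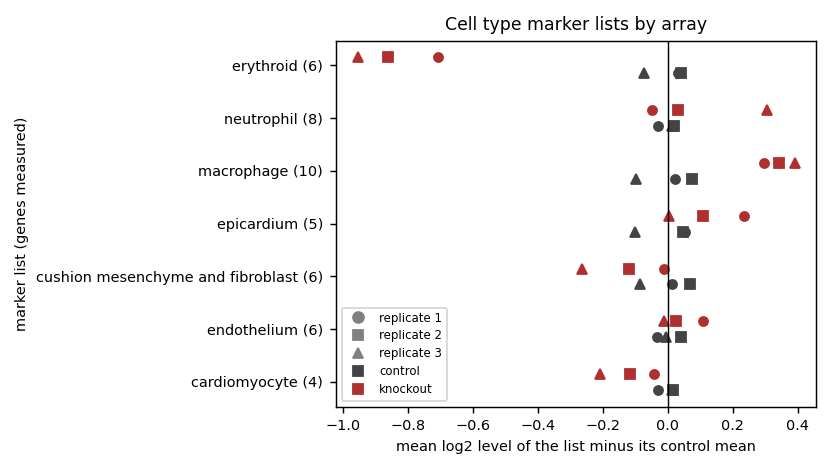
The mean log2 level of each cell type marker list, less its mean in the control arrays, is plotted for each array, with the number of genes measured in brackets. The knockout arrays lie above the controls for macrophage genes and below them for erythroid and cardiomyocyte genes, and the genotypes overlap for the other 4 lists plotted.

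The other gelatinase, Mmp2, differed by less than its spread between knockout arrays. Mmp2 had log2 values of 11.80, 11.80 and 11.66 in control and 11.87, 11.71 and 11.44 in knockout arrays. The knockout arrays lay on both sides of the controls, and the difference of -0.08 ± 0.11 (SE, adjusted p = 0.748) turned to 0.03 without knockout replicate 3. Mmp14, the membrane-type protease that activates pro-Mmp2 at the cell surface, had 10.98, 10.94 and 10.93 in control and 10.95, 10.93 and 10.75 in knockout arrays. Its change was -0.07 ± 0.07 (95% interval -0.24 to 0.09, adjusted p = 0.624), with knockout replicate 3 again the lowest array.

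Of the remaining membrane-type enzymes, Mmp16 had the most negative change of any MMP, and Mmp17 had groups that did not overlap. Mmp16 stood at 9.13, 8.94 and 8.74 in control and 8.93, 8.64 and 8.57 in knockout arrays, a difference of -0.22 ± 0.13 (SE, adjusted p = 0.403) between overlapping groups. It was -0.13 without control replicate 1 and -0.35 with array weights. Mmp17, which is held in the membrane by a lipid anchor, stood at 7.20, 7.16 and 7.22 in control and 7.23, 7.25 and 7.34 in knockout arrays. Its difference was 0.08 ± 0.06 (adjusted p = 0.507). Mmp21, in which human mutations cause defects of left-right placement of the heart, had a change of -0.06 ± 0.08 (adjusted p = 0.744), which turned to 0.01 without control replicate 1.

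The collagenases and stromelysins had small changes, and all but Mmp11 lay among the dimmer genes. Mmp8, the neutrophil collagenase, stood at 4.35, 4.46 and 4.34 in control and 4.47, 4.53 and 4.58 in knockout arrays, so that the groups did not overlap by a narrow margin. The difference was 0.14 ± 0.06 (SE, adjusted p = 0.298). The 4 collagenases (Mmp1a, Mmp1b, Mmp8 and Mmp13) had changes from -0.06 to 0.14. The 4 stromelysins and matrilysin (Mmp3, Mmp7, Mmp10 and Mmp11) had changes from -0.08 to 0.08. The 6 others (Mmp12, Mmp19, Mmp20, Mmp21, Mmp23 and Mmp28) ran from -0.10 to 0.13. The upper end was Mmp23, at 0.13 ± 0.07 (adjusted p = 0.394), or 0.20 without control replicate 1. Mmp1a and Mmp1b are close copies, so their probe sets may share signal.

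Many of these low-signal MMP genes carry, in the bases just before their start, a sequence long associated with MMP induction. That sequence is TGANTCA, the site of the AP-1 factors Fos and Jun, which reads the same on both strands. Promoters were taken from RefSeq (build GRCm38.p6) and matched by symbol for 40 of the 65 genes. In the 250 bases before the start, TGANTCA occurred in 11 of these 40 genes (27.5%) and in 7.82% of all 27025 genes with an entry. By family it was 8 of 15 MMPs, 3 of 13 ADAMs, and 0 of the 5 ADAMTS, 3 ADAMTSL and 4 TIMP genes. The 8 MMP matches are printed with 8 bases on either side, 5′ to 3′ on the gene's strand, to show the shared site, which is in capitals. All are on chromosome 9, where these genes form a cluster.
Mmp1a (chr9:7464060-7464082, + strand): gtcaaccaTGAGTCAcatagcct
Mmp1b (chr9:7388105-7388127, - strand): acaaagccTGAGTCAtatagcct
Mmp3 (chr9:7445768-7445790, + strand): agcaattaTGAGTCAgttttcgg
Mmp7 (chr9:7692019-7692041, + strand): tgtgcaaaTGAGTCAcctatttc
Mmp10 (chr9:7502271-7502293, + strand): cacccatgTGAGTCAtgcttagt
Mmp12 (chr9:7347322-7347344, + strand): atcaacagTGAGTCAgatagagg
Mmp13 (chr9:7272471-7272493, + strand): caaagtggTGACTCAtcactatc
Mmp20 (chr9:7628128-7628150, + strand): ttgagacaTGAATCAtcacttac
The changes of these 8 genes ran from -0.06 to 0.08 with a median of 0.02, and 0 had an unadjusted p under 0.05. All 8 were dimmer genes, and 10.9% of all dimmer genes had such a p (17.5% of all genes), so 0 of 8 does not set them apart. A match is a description of the letters only.

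Among the ADAMs, 15 of 25 were higher and 10 lower, with a median of 0.02 (-0.0048 after median centring). At an unadjusted p under 0.05 there was 1, beside 17.5% of all genes tested. The 8 ADAMs with an active protease domain that are known as sheddases ran from -0.08 to 0.16. Adam10, which cuts Notch receptors and cadherins, stood at 11.40, 11.44 and 11.37 in control and 11.39, 11.36 and 11.37 in knockout arrays. The difference was -0.03 ± 0.05 (SE), with a 95% interval of -0.16 to 0.10 and an adjusted p of 0.820. Adam19, which is needed for endocardial cushion development in mice, stood at 10.41, 10.56 and 10.39 in control and 10.58, 10.47 and 10.29 in knockout arrays. The knockout arrays lay on both sides of the controls, and the difference was -0.01 ± 0.09 (adjusted p = 0.976). It turned to 0.02 with array weights, 0.04 without control replicate 2 and 0.07 without knockout replicate 3.

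Of the other sheddases, Adam33 had the largest change in size. Adam9 differed by 0.01 ± 0.06 (SE, adjusted p = 0.937), which turned to -0.01 after median centring. Adam15, which is expressed in endothelium, differed by 0.06 ± 0.06 (adjusted p = 0.657). Adam33, first known as an asthma susceptibility gene in humans, had 8.05, 8.09 and 7.91 in control and 8.19, 8.28 and 8.06 in knockout arrays. Its groups overlapped in 1 knockout array and the difference was 0.16 ± 0.08 (adjusted p = 0.344).

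The 3 ADAMs without catalytic activity that are known from the nervous system, Adam11, Adam22 and Adam23, ran from -0.23 to 0.01. The most negative change of all 65 genes was in Adam22, a receptor for secreted LGI proteins at synapses. It stood at 7.69, 8.03 and 7.57 in control and 7.55, 7.65 and 7.40 in knockout arrays, a difference of -0.23 ± 0.13 (SE, adjusted p = 0.378). The control values spread more widely (SD 0.24) than the knockout values (SD 0.12), and the difference was -0.10 without control replicate 2.

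The 14 ADAMs known mainly from testis and epididymis were all in the dimmer part of the genes, with values between 2.90 and 6.47. Their changes ran from -0.12 to 0.30. The upper end was Adam6b, a sperm gene that lies within the immunoglobulin heavy chain locus, at 4.01, 3.79 and 3.87 in control and 4.25, 4.26 and 4.04 in knockout arrays. The groups did not overlap and the difference was 0.30 ± 0.09 (SE, adjusted p = 0.170), or 0.28 without control replicate 3 (adjusted p = 0.296). Adam6a, a close copy whose signal may be shared, differed by 0.02 ± 0.18 (adjusted p = 0.962). That value turned to -0.13 with array weights or without control replicate 3, and to -0.12 without knockout replicate 3.

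Most ADAMTS proteases were slightly lower in the knockout mean, without any passing the test. Of 12 genes 11 were lower and 1 higher, where 7187 of all 14860 genes were lower. Their median log2 change was -0.04, and 0 had an unadjusted p under 0.05, beside 17.5% of all genes. The knockout arrays did not share a direction. The family median was -0.01 without knockout replicate 3, and knockout replicate 1 had a median deviation of 0.04 from the control mean. Adamts1, which cuts versican and in mice restrains trabecular growth, stood at 10.44, 10.40 and 10.38 in control and 10.52, 10.34 and 10.28 in knockout arrays. The knockout arrays fell on both sides of the controls, and the difference was -0.03 ± 0.07 (SE, 95% interval -0.20 to 0.15, adjusted p = 0.888). It turned to 0.02 without knockout replicate 3.

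Adamts5, a versican-cutting protease that takes part in valve maturation in mice, had the most negative change of the ADAMTS family. It stood at 8.58, 8.60 and 8.42 in control and 8.67, 8.29 and 8.13 in knockout arrays. Knockout replicate 1 was the highest array of all 6 and knockout replicate 3 the lowest, and the difference was -0.17 ± 0.13 (SE, adjusted p = 0.558). Without knockout replicate 1 it was -0.32, and without knockout replicate 3 it was -0.05. Adamts8, another proteoglycan-cutting enzyme, had 8.60, 8.64 and 8.64 in control and 8.72, 8.51 and 8.35 in knockout arrays, a difference of -0.10 ± 0.09 (adjusted p = 0.650) that was -0.19 without knockout replicate 1 and -0.0058 without knockout replicate 3. Its knockout arrays lay again on both sides of the controls. Adamts20 was the 1 gene of the family that was higher, at 6.22, 6.17 and 6.09 in control and 6.27, 6.27 and 6.26 in knockout arrays. Its groups did not overlap and the difference was 0.11 ± 0.06 (adjusted p = 0.382), or 0.07 without control replicate 3.

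Outside the proteoglycan-cutting group, all 7 ADAMTS genes had changes from -0.12 to 0.00. The lower end was Adamts12, at -0.12 ± 0.07 (SE, adjusted p = 0.465), or -0.05 without control replicate 2. Adamts19, whose loss causes heart valve disease in humans and mice, differed by -0.04 ± 0.07 (adjusted p = 0.800). The 4 ADAMTS-like genes ran from -0.08 (Adamtsl2, which binds fibrillin and is mutated in a human short-stature disorder with valve disease) to 0.01 (Adamtsl1).

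In most of the brighter protease and inhibitor genes, replicate 3 was the lowest array of its genotype. Of the 20 brighter genes, knockout replicate 3 was the lowest of the knockout arrays in 14 and control replicate 3 the lowest of the controls in 14 (70.0% each). Over all brighter genes those shares were 39.8% and 53.0%. In the ADAMTS family the median deviation from the control mean was 0.04 in knockout replicate 1, -0.05 in replicate 2 and -0.11 in replicate 3. The mean log2 level of the 6 cushion mesenchyme and fibroblast markers was 10.18, 10.07 and 9.92 in those arrays, and 10.20, 10.26 and 10.10 in the controls. That fall from knockout replicate 1 to replicate 3 was not particular to this list. Cardiomyocyte (12.32, 12.25 and 12.15), endothelial (11.44, 11.35 and 11.32) and epicardial markers (10.56, 10.43 and 10.33) fell in the same order. The erythroid, cartilage and osteoclast lists did so too. The macrophage, neutrophil and skeletal muscle lists rose in that order, and the megakaryocyte, liver and lung lists did neither. The part of these cell types in the protease values was not tested.

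**Figure D4:**
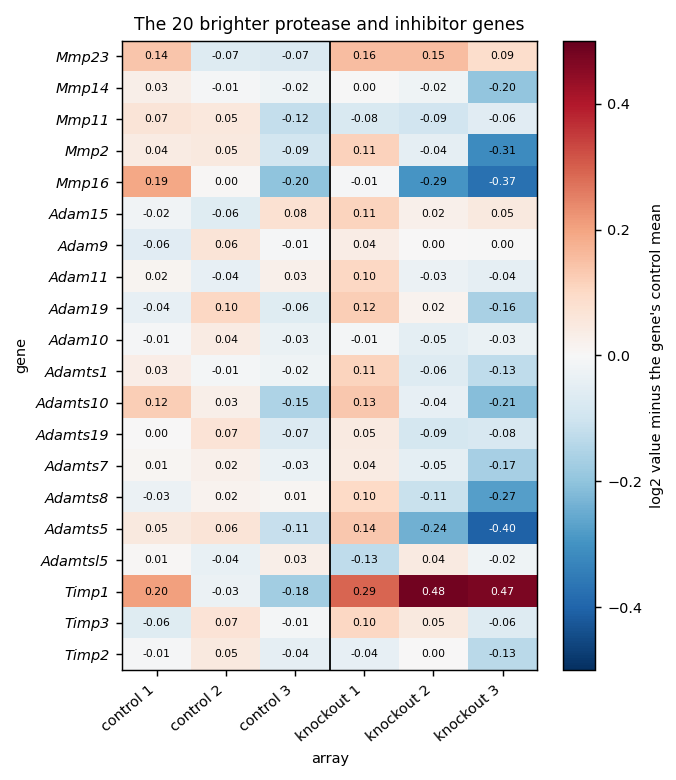
The log2 value of each of the 20 brighter genes, less its mean over the control arrays, is shown for all 6 arrays as colour and as a number. Knockout replicate 3 is the lowest knockout array in 14 of the 20 genes, while Timp1 has the highest values of the 20 in the knockout arrays.

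The inhibitors included 2 of the 4 genes with an unadjusted p under 0.05, a p that 17.5% of all genes tested and 24.2% of all brighter genes had. Of the 4 TIMPs 3 were higher and 1 lower, with a median log2 change of 0.15. Timp1, the inducible inhibitor of most MMPs and of Adam10, stood at 10.44, 10.21 and 10.06 in control and 10.53, 10.72 and 10.71 in knockout arrays (probe set 7010355). The groups did not overlap, with control replicate 1 and knockout replicate 1 close together. The difference was 0.41 ± 0.11 (SE), or 1.33-fold with a 95% interval of 1.12 to 1.58, at an adjusted p of 0.138. It was 0.33 without control replicate 3 (adjusted p = 0.256), and it passed at an adjusted p of 0.0424 where only the brighter genes were tested, a setting in which 5.96% of the genes passed. The macrophage levels given above were higher in the same 3 arrays, and their part in the Timp1 values was not tested.

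Timp4, the TIMP best known from the adult heart, stood at 7.02, 6.76 and 6.91 in control and 7.227, 7.003 and 7.285 in knockout arrays. The groups overlapped by a narrow margin, since knockout replicate 2 lay just below control replicate 1. The difference was 0.28 ± 0.10 (SE, adjusted p = 0.216), and its size was 0.12 with array weights. Leaving out control replicate 3 gave 0.28 (adjusted p = 0.333). Timp2, which bridges Mmp14 and pro-Mmp2, stood at 11.27, 11.32 and 11.23 in control and 11.23, 11.27 and 11.14 in knockout arrays, a difference of -0.06 ± 0.06 (adjusted p = 0.679). Timp3, which binds to the matrix and also inhibits ADAM and ADAMTS proteases, stood at 11.58, 11.71 and 11.63 in control and 11.74, 11.69 and 11.57 in knockout arrays. Its difference was 0.03 ± 0.07 (adjusted p = 0.865), and it turned to -0.01 after quantile normalisation.

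**Figure D5:**
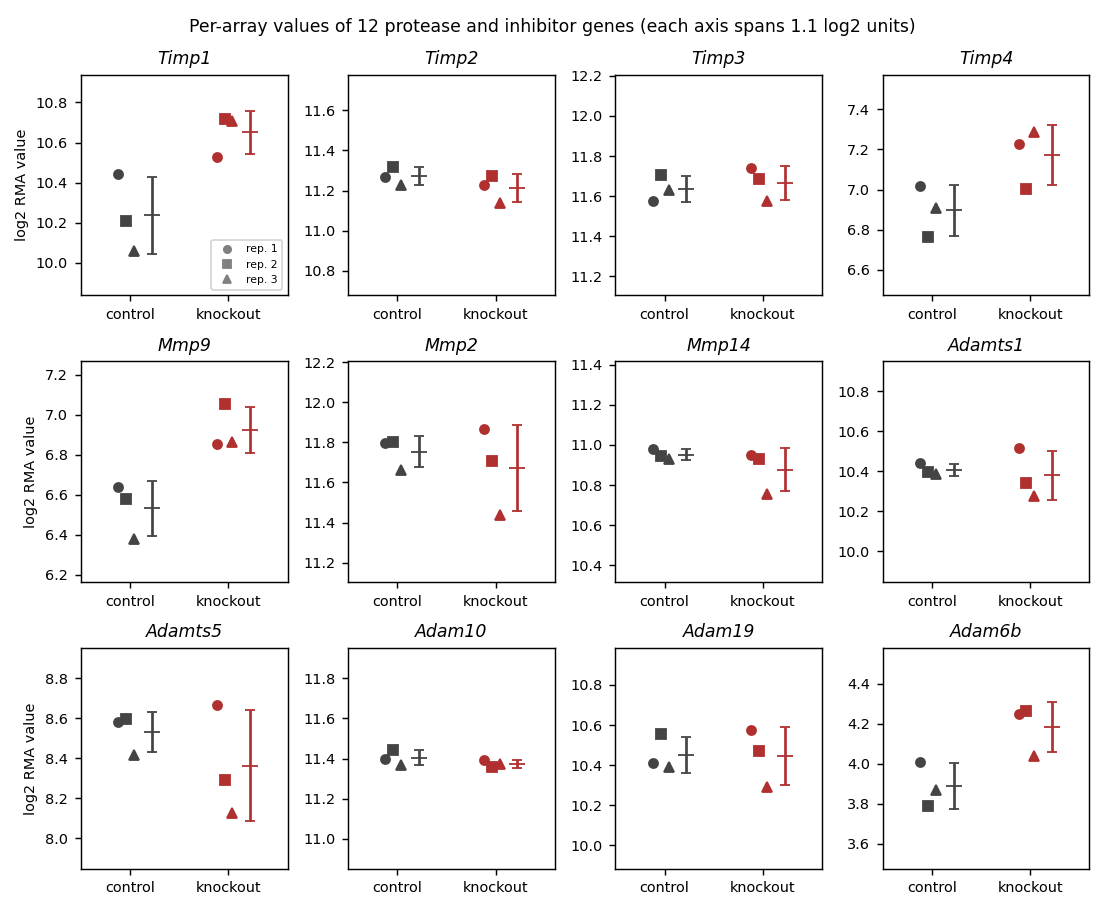
Log2 values of 12 genes are plotted for each array, with bars for the mean and SD of 3 arrays and the same length of axis in every panel. The genotypes are apart for Timp1, Mmp9 and Adam6b and overlap for the other genes shown.

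The promoters of the TIMPs with the smallest p, Timp1 and Timp4, are printed from RefSeq (build GRCm38.p6), 250 bases ending just before the start and 5′ to 3′ on the gene's strand. Capitals mark matches, on either strand, to AGGAAG (a site of ETS factors), to ACGTG (the core of the hypoxia response element), to TGANTCA or to GGGCANCC (an element bound by the related factor HIC1).
Timp1 (chrX:20869916-20870165, + strand): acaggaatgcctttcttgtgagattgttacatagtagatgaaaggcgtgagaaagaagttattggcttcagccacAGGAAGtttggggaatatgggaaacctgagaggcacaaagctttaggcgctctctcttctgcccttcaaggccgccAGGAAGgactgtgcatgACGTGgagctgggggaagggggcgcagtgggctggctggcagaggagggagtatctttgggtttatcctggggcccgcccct
Timp4 (chr6:115252206-115252455, - strand): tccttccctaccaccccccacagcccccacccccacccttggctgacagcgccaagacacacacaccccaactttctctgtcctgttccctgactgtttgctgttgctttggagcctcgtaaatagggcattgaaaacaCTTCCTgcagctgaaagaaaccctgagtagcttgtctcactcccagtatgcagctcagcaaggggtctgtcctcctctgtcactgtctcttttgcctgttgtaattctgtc
The Timp1 window held AGGAAG at 175 and 99 bases and ACGTG at 82 bases before the start, and the Timp4 window held AGGAAG on the other strand at 111 bases. AGGAAG also occurred in Timp3, and in all in 16 of the 40 protease and inhibitor genes, beside 32.3% of all genes with an entry. ACGTG occurred in 8 of the 40 and in 18.5% of all genes with an entry. GGGCANCC occurred in 5.22% of all such genes, in 3 of the 40 protease and inhibitor genes, and in neither printed window.

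Genes that act with these proteases were read from 4 lists. Of 29 measured regulators and partners 1 rose and 0 fell at the threshold over all genes, which 0.336% of all genes passed higher and 0.222% lower. At an unadjusted p under 0.05 there were 4 higher and 4 lower in this list, beside 10.7% and 6.8% of all genes. The gene that rose was A2m, alpha-2-macroglobulin, a secreted inhibitor that traps proteases of all classes. A2m stood at 6.57, 6.82 and 6.60 in control and 7.92, 7.43 and 7.51 in knockout arrays, a rise of 0.96 ± 0.14 (SE, adjusted p = 0.0424). All knockout arrays lay above all controls. The call was lost in each of the 6 refits that leave out 1 array (change from 0.81 to 1.05, adjusted p from 0.0589 to 0.128), with every row tested (0.183) or with the replicate number as a block (0.0934). It held with array weights (0.0130) and with the variance trend (0.0236). The list's median log2 change was 0.02.

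The substrates were likewise short of the threshold. Of 31 measured matrix substrates 0 passed, with a median log2 change of -0.04, and 5 had an unadjusted p under 0.05, all lower. At that p 6.8% of all genes were lower. All 5 were among the brighter genes, and 704 of all 7430 brighter genes were lower at that p. The smallest p belonged to the matrix glycoprotein gene Tnc (-0.35 ± 0.11, SE), the fibrillar collagen genes Col5a1 (-0.22 ± 0.08) and Col3a1 (-0.24 ± 0.08), and the thrombospondin Thbs1 (-0.28 ± 0.12), with adjusted p between 0.183 and 0.274. Col3a1 was at -0.16 without knockout replicate 3. Of 30 measured membrane proteins known to be shed 0 passed, with a median of 0.01. At an unadjusted p under 0.05 there were 4 higher and 4 lower, beside 10.7% and 6.8% of all genes. Of the 7430 brighter genes 1095 were higher and 704 lower at that p. The smallest p there belonged to the syndecan Sdc4 (0.50 ± 0.08), the adhesion molecule Icam1 (0.43 ± 0.11), the Notch ligand Dll4 (0.19 ± 0.05) and N-cadherin Cdh2 (-0.19 ± 0.06), with adjusted p between 0.0538 and 0.172.

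Of 17 measured transcription factors of protease genes 0 passed, with a median log2 change of 0.03. At an unadjusted p under 0.05 there were 2 higher and 1 lower, beside 10.7% and 6.8% of all genes. The smallest p belonged to the ETS factor Etv5 (0.42 ± 0.09, SE), the hypoxia factor subunit Hif1a (-0.23 ± 0.07), and the AP-1 subunits Fosl2 (0.26 ± 0.08) and Jund (-0.32 ± 0.15), with adjusted p from 0.0885 for Etv5 upwards. Jund was at -0.15 without control replicate 2 and -0.16 with array weights.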

How the data were processed

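RNA of 6 heart pools was prepared with a Qiagen kit and hybridised to 1 Affymetrix array per pool, per the labels. The submitters' processing notes name RMA and Affymetrix Expression Console, and the authors deposited values on the log2 scale. Quantile normalisation within RMA gives arrays a like distribution, which would hide a shift common to all genes. The program's version and the array annotation's release were not given in the sources used here.

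Of 23332 rows, 14996 carried exactly 1 symbol, 1019 several and 7317 were unnamed here. The brightest row per gene was kept, which gave 14860 genes, with no filter on dim rows. Genes were compared with limma 3.58.1 in R 4.3.3 (lmFit, eBayes, two-sided, 7.46 moderated degrees of freedom, Benjamini-Hochberg over all genes, threshold 0.05). Errors with changes are standard errors of that fit, and intervals are its 95% confidence intervals. Precision is limited by 3 arrays per genotype, which were not duplicates (at most 10 identical values per pair). The fit was tested on simulated data.

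Named genes are those past the threshold, those with an unadjusted p under 0.05, the TIMPs, 15 listed for known roles in heart and Hic2. Of those 15, Adam17, Adamts6, Adamts9 and Mmp15 were not analysed here. Further genes were named after their values were seen, as family extremes or for groups that did not overlap (Mmp8, Mmp16, Mmp17, Mmp23, Adam6a, Adam22, Adam33, Adamts8, Adamts12, Adamts20, Adamtsl1 and Adamtsl2). Of each related list, genes past the threshold or up to 4 with the smallest p are named. The genes, lists and settings were chosen with earlier results of these data known. Alternatives were leaving out each array, a replicate block, array weights, robust moderation with a variance trend, quantile normalisation, median centring, brighter genes only, every row tested, and the mean of probe sets. Motifs were searched in promoters of the RefSeq table (32851 entries).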

Additional observations from a re-analysis of the deposited data

How the results depend on the processing

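The absence of calls among the 65 genes held in 12 of 14 alternatives, with 1 gene past the threshold under array weights (Mmp9) and 1 among the brighter genes only (Timp1, with fewer genes tested). With limma the count over all genes, against 83, was 38 with the replicate block, 203 with the variance trend, 733 with array weights, 443 among the brighter genes, 0 with every row tested (2935 rows at an unadjusted p under 0.05) and 3 to 28 without 1 array. The 65 genes held 4 at an unadjusted p under 0.05, and 7 with the replicate block (16% of all genes), 7 with array weights (25.9%), 1 among the brighter genes (29%) and 4 to 7 without 1 array. The replicate numbers are not a known pairing: deviations of same-numbered arrays correlated at -0.04, 0.02 and 0.13, and control replicate 2 correlated best with knockout replicate 1 (0.22).

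Median log2 changes of families moved with array weights (MMP 0.0022, ADAM 0.00083, TIMP 0.091), median centring (MMP -0.042, ADAM -0.0048, ADAMTSL -0.053), quantile normalisation (ADAMTSL -0.052) and brighter genes only (MMP -0.075 over 5 genes, TIMP 0.029 over 3). Without 1 array they ran from -0.038 to 0.012 (MMP), -0.0041 to 0.032 (ADAM), -0.090 to -0.011 (ADAMTS), -0.055 to -0.022 (ADAMTSL) and 0.12 to 0.19 (TIMP). Single genes near 0 changed sign: Adam19 (0.021) and Adam6a (-0.13) with array weights, Adam9 (-0.0095) with median centring and Timp3 (-0.0057) with quantile normalisation. Without 1 array the ranges that crossed 0 were -0.073 to 0.069 (Adam19), -0.13 to 0.18 (Adam6a), -0.016 to 0.044 (Adam9), -0.096 to 0.023 (Adamts1), -0.18 to 0.034 (Mmp2), -0.10 to 0.010 (Mmp21) and -0.0071 to 0.075 (Timp3). The cause of these moves was not tested. The 41 genes followed through the alternatives included Adam29, which is not described above, and left out Adamtsl1 and Adamtsl2. Of their 560 values, 529 kept direction and side of the threshold and 14 changed sign. A further 9 came past the threshold (Mmp9, Timp1, Sdc4, Icam1, Hif1a and Etv5) and 8 were lost, all of A2m. Median centring moved the median of all genes from 0.00 to -0.02. Genes below the median signal, Hic2 among them, have no value among the brighter genes only.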

Other observations

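Rows that name several ADAM genes, all from the group expressed in testis, were not used above, and 4 such rows were present. Their log2 changes, fitted over all 23332 rows, were 0.14 ± 0.15 (SE) for the row of Adam25 and Adam39, 0.00 ± 0.12 and 0.13 ± 0.11 for the rows of Adam26a and Adam26b, and -0.14 ± 0.14 for the row of Adam34 and its neighbours, with adjusted p between 0.656 and 0.996. The second row of Adam23 had a change of 0.07 ± 0.08 (adjusted p = 0.757), on the other side of 0 from the row that was kept (-0.10 ± 0.10).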
